A study of Mus musculus with 8 samples.

Results

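The genes described here encode proteins that copy DNA and carry cells through mitosis. They were 41 genes, 14 of S phase and 27 of mitosis, in a list chosen with earlier results of these data known. A gene counted as measured where a row of the value table carried its symbol alone, and the brightest row on average stood for a gene with several. By that rule 40 of the 41 were measured, 14 of S phase and 26 of mitosis, among 19938 genes in all. Ccnb1 had no such row and was not analysed here. Expression was measured on Affymetrix arrays in macrophages washed from the peritoneal cavity of wild-type C57/Bl6 mice, with and without histidine-rich glycoprotein (HRG), a plasma protein. Cells of 10 mice were pooled, kept overnight in RPMI/5% FCS, and then cultured for 6 or 24 h either untreated (basal) or with recombinant HRG at 1 µg/ml. Each of the 4 groups, Basal 6h, HRG 6h, Basal 24h and HRG 24h, had 2 arrays, and 250 ng of total RNA was labelled per array. Because all arrays came from 1 pool of mice, p-values measure only the spread between these arrays, which may be technical.

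A cell that leaves its resting state first loads the MCM helicase onto DNA with the help of Cdc6. It then fires these origins under cyclin E and copies its genome around the sliding clamp Pcna, using nucleotides made by ribonucleotide reductase, thymidylate synthase and thymidine kinase. Mitosis follows under cyclin A and cyclin B with Cdk1, with Aurora and Polo kinases, motor proteins and a spindle checkpoint that holds cells until every chromosome is attached. Peritoneal macrophages of adult mice are mostly resting cells, which can nevertheless divide in place.

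Levels and differences below are on the log2 scale, so a difference of 1 is a doubling, and a level is comparable between arrays but not between genes. Differences are given with the standard error of a limma fit to all 8 arrays, and a gene is said to have risen or fallen only where its p-value, adjusted by Benjamini-Hochberg over all 19938 genes, was under 0.05. Array medians lay between 7.18 and 7.29, and duplicates correlated across genes with r between 0.9963 and 0.9976. All 10 macrophage markers measured, Adgre1 and Csf1r among them, had means above 6.66, the 95th percentile of 1194 olfactory and vomeronasal receptor genes, which serve as genes that should be silent here. Markers of other cells also lay above it: 9 of 10 of B cells, 8 of 9 of mast cells and 9 of 12 of T and NK cells. So did 8 of 10 dendritic cell, 10 of 12 mesothelial and fibroblast, 5 of 12 granulocyte and 5 of 6 erythroid and megakaryocyte markers. Of the members, 26 of 40 lay above 6.66, 12 of 14 of S phase and 14 of 26 of mitosis. Of all genes 13116 did. Of the mitotic members 12 of 26 were thus dim, and a dim probe understates a change.

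Across the 4 groups the mitotic members stood highest with HRG at 24 h. HRG 24h had the highest group mean for 23 of 26 mitotic members (88.5%) and for 7 of 14 S phase members, against 23.5% of all genes. Both HRG 24h arrays lay above the other 6 arrays for 17 of 26 mitotic members (65.4%) and for 3 of 14 S phase members (21.4%), namely Ccne1, Rrm1 and Rrm2, against 8.29% of all genes. With each gene set to its own mean over the 8 arrays, the median mitotic member stood at 0.18 and 0.15 on the HRG 24h arrays. On the other 6 arrays it stood between -0.12 and -0.040. The median S phase member stood at 0.053 and 0.059 with HRG at 24 h, and between -0.093 and 0.017 on the other 6 arrays. In RNA of a whole culture, a larger number of dividing cells and more RNA per dividing cell cannot be told apart.

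**Figure D1:**
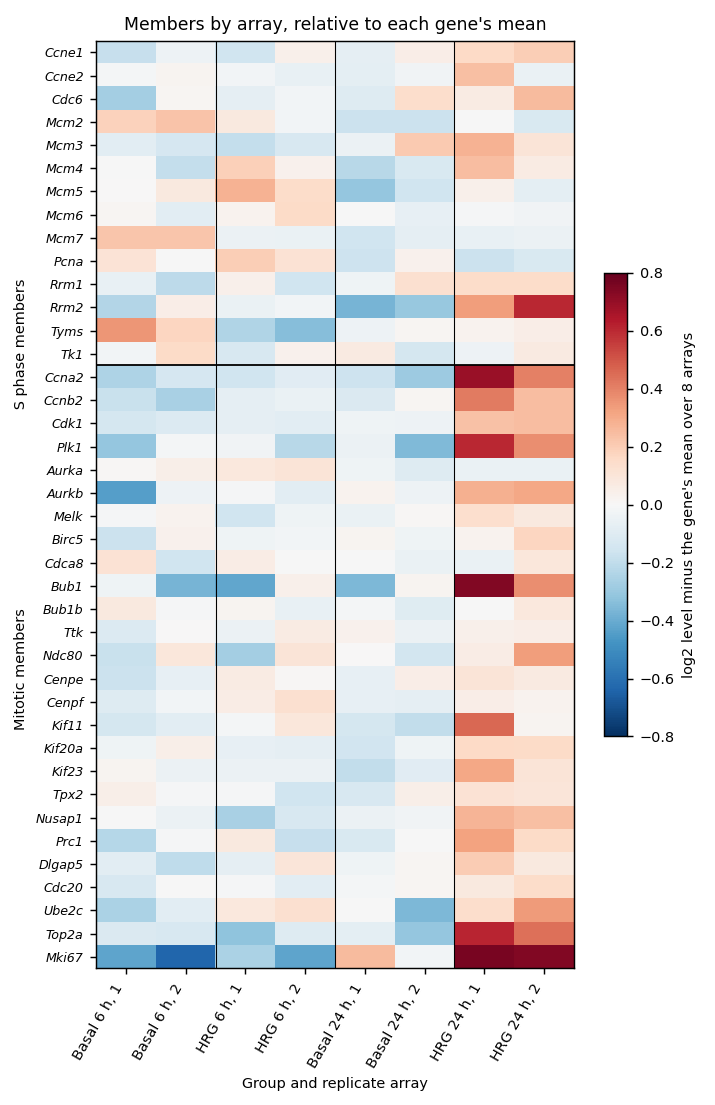
Each row is a member and each column an array; colour gives the log2 level minus the gene's mean over the 8 arrays, with S phase and mitotic members in separate blocks. The HRG 24h columns are the ones in which most mitotic rows are above their mean, while the S phase rows are mixed.

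At 24 h HRG was accompanied by a rise of 4 of 26 mitotic and 1 of 14 S phase members. Against basal cultures of the same age, 5 of 40 members rose (2.43% of all genes rose) and 0 of 40 fell (1.05% of all genes fell; at an unadjusted p under 0.05 limma gave 16 members higher and 0 lower). The 5 were Ccna2, Top2a, Plk1 and Mki67 of the mitotic members, and Rrm2 of the S phase members. They rose between 1.55-fold and 1.75-fold, and the Basal 24h means of Rrm2 (6.49), Ccna2 (6.58) and Top2a (6.48) lay under 6.66, the level of the olfactory receptor genes.

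Ccna2 encodes cyclin A2, which drives Cdk kinases through S phase and into mitosis. It measured 6.64 and 6.52 in Basal 24h and 7.49 and 7.21 in HRG 24h, next to 6.56 and 6.67 in Basal 6h and 6.65 and 6.71 in HRG 6h. Both HRG 24h arrays were above the other 6 arrays, and the rise over Basal 24h was 0.78 ± 0.11 (SE, n = 2 arrays per group; limma adjusted p = 0.0024), or 1.71-fold. Top2a, the topoisomerase that untangles sister chromatids, measured 6.59 and 6.36 in Basal 24h and 7.28 and 7.12 in HRG 24h. Its 6 h arrays ran from 6.35 to 6.57, so only the HRG 24h arrays stood apart. Top2a rose by 0.72 ± 0.12 (SE, n = 2; limma adjusted p = 0.0043). Plk1, the Polo kinase of mitotic entry and spindle assembly, measured 7.18 and 6.88 in Basal 24h and 7.83 and 7.60 in HRG 24h. The other 4 arrays lay between 6.92 and 7.22. Plk1 rose by 0.69 ± 0.14 (SE, n = 2; limma adjusted p = 0.017), and the groups did not overlap. Mki67 encodes the Ki-67 protein that coats mitotic chromosomes and marks cycling cells. It measured 9.04 and 8.77 in Basal 24h and 9.54 and 9.53 in HRG 24h, and rose by 0.63 ± 0.12 (SE, n = 2; limma adjusted p = 0.011). Unlike the other mitotic members that rose, Mki67 was also higher in Basal 24h than in both 6 h groups, which lay between 8.15 and 8.53.

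The calls for Ccna2 and Rrm2 held when any single array was left out, and those for the other three did not. Without Basal 24h replicate 2 the adjusted p was 0.12 for Mki67, 0.17 for Plk1 and 0.054 for Top2a, and the count of members that rose was 2. Without HRG 24h replicate 1 it was 0.12 for Mki67, 0.23 for Plk1 and 0.077 for Top2a, and the count was again 2. Without HRG 24h replicate 2 it was 0.071 for Mki67. A dimmer second row of Top2a had a mean of 3.37, under 4.85, the median of the olfactory and vomeronasal receptor genes. This row differed by -0.011 between the same groups, and the mean of the 2 rows gave 0.36 (limma adjusted p = 0.14).

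**Figure D2:**
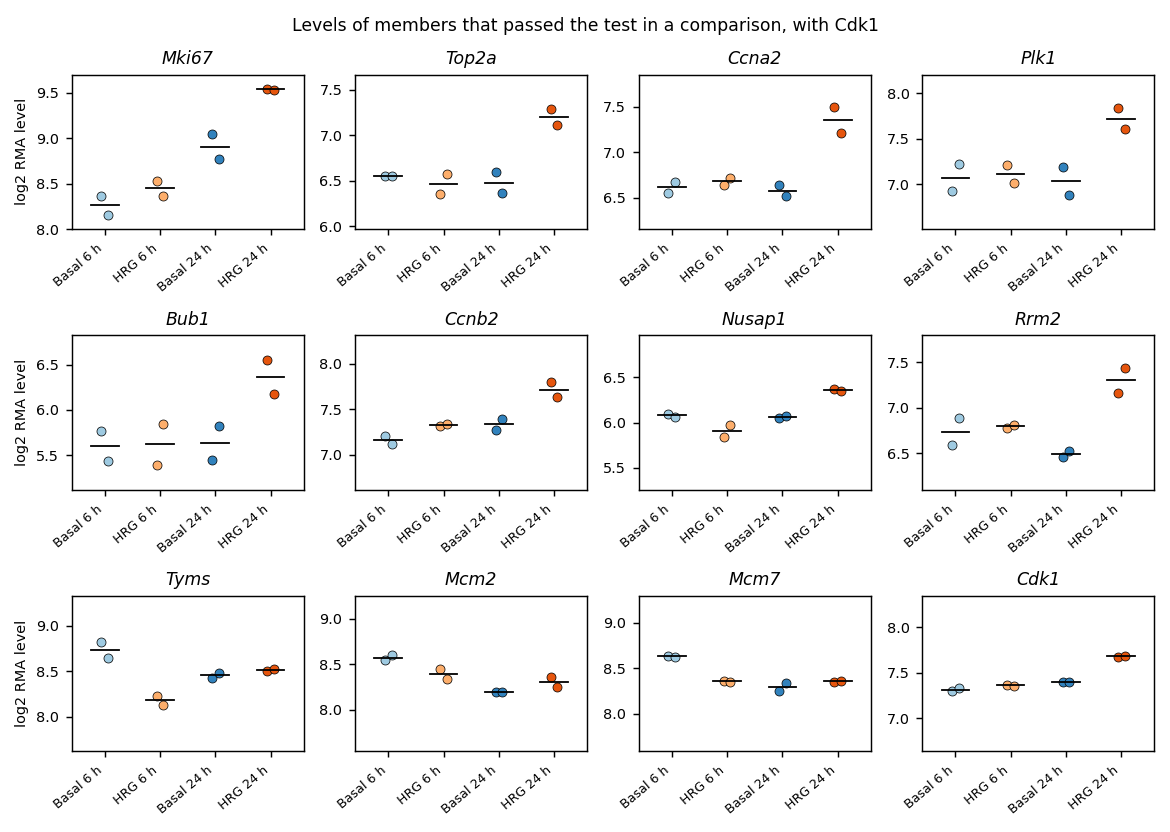
Points are the log2 levels of named members on each of the 8 arrays, in the order Basal 6h, HRG 6h, Basal 24h and HRG 24h, and bars are group means of 2 arrays. The HRG 24h points of Ccna2, Top2a, Plk1, Mki67 and Rrm2 lie above those of Basal 24h, while Tyms was lowest in HRG 6h.

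The remaining 22 mitotic members did not pass the test at 24 h, yet their differences pointed one way. All 26 mitotic members had a difference above 0, with a median of 0.27, against a median of -0.019 over all genes and 8714 of 19938 genes above 0. The count was 25 of 26 without Basal 24h replicate 2 (Aurka below 0) and without HRG 24h replicate 2 (Cdca8 below 0). The arrays did not overlap and were higher with HRG for 24 of 26 mitotic members, against 19.1% of all genes. Bub1, a kinase of the spindle checkpoint, measured 5.45 and 5.83 in Basal 24h and 6.55 and 6.18 in HRG 24h, a difference of 0.72 ± 0.18 (SE, n = 2) that missed the threshold (limma adjusted p = 0.054). Ccnb2, the measured B-type cyclin, differed by 0.38 ± 0.10 (limma adjusted p = 0.064), and Cdk1, the kinase that cyclins A and B activate, by 0.28 ± 0.088 (limma adjusted p = 0.14). Cdk1 measured 7.41 and 7.40 in Basal 24h and 7.68 and 7.69 in HRG 24h. The smallest mitotic difference was 0.015, for the Aurora kinase gene Aurka, whose HRG 24h arrays of 7.44 and 7.44 lay within the Basal 24h range.

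The promoters of 4 of the 5 members that rose at 24 h are shown because mitotic genes are known to carry CCAAT boxes, bound by NF-Y, and the cell cycle homology region (CHR), bound by the DREAM and MuvB complexes. Each is the 250 bases before the RefSeq start in GRCm38.p6, 5′ to 3′ on the gene's strand, with CCAAT (or ATTGG) and CHR matches (TTTGAA or TTCGAA, or TTCAAA) in capitals. Top2a is chr11:99024190-99024439 on the minus strand, Mki67 is chr7:135716380-135716629 on the minus strand, Plk1 is chr7:122159185-122159434 on the plus strand and Rrm2 is chr12:24708004-24708253 on the plus strand.
Top2a: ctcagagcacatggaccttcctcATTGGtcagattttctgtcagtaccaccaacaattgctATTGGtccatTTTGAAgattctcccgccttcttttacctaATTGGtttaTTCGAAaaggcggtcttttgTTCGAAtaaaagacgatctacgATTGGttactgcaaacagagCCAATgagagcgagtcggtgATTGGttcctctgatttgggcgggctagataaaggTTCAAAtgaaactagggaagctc
Mki67: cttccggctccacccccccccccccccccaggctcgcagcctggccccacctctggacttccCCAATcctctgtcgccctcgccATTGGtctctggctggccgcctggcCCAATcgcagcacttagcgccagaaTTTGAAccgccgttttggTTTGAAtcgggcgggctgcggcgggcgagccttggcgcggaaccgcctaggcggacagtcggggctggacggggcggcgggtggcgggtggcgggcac
Plk1: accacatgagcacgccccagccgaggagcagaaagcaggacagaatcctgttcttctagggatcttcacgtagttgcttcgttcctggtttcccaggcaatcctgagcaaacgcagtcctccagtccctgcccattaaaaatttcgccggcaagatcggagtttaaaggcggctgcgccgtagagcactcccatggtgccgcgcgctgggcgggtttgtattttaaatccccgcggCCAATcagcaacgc
Rrm2: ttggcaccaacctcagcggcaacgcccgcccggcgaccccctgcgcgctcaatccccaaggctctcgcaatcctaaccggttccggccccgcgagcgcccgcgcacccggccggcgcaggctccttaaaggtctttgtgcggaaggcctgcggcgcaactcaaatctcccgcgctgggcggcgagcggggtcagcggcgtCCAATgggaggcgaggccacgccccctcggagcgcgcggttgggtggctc
Top2a held 6 CCAAT and 4 CHR matches, Mki67 held 3 and 2, and Plk1 and Rrm2 held 1 CCAAT match each and 0 CHR matches. RefSeq promoters were matched for 33 of the 40 members. CCAAT stood in 18 of 22 promoters of 21 mitotic members (81.8%) and in 9 of 13 promoters of 12 S phase members (69.2%), against 33.8% of all 32851 promoters. A CHR match stood in 9 of the 22 mitotic promoters (40.9%) and in 2 of the 13 S phase promoters (15.4%), against 17.1% of all. E2F letters (TTTCCCGC, TTTGGCGC or TTTCGCGC) stood in 4 of the 13 S phase promoters (30.8%) and in 1 of the 22 mitotic promoters (4.55%), against 1.53% of all. All motifs were searched on both strands, and none of these letter strings contains another. A match describes the letters in this window and is not a measured binding site.

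Among S phase members, 1 of 14 rose with HRG at 24 h (2.43% of all genes). Rrm2, the small and limiting subunit of ribonucleotide reductase, measured 6.46 and 6.53 in Basal 24h and 7.17 and 7.43 in HRG 24h. The 6 h arrays lay between 6.59 and 6.88, so both HRG 24h arrays were above the other 6 arrays. Rrm2 rose by 0.81 ± 0.12 (SE, n = 2; limma adjusted p = 0.0030), or 1.75-fold, the largest difference of any member in this comparison. The S phase members had a median difference of 0.11, with 13 of 14 above 0 and 8 of 14 with arrays that did not overlap and were higher with HRG (19.1% of all genes). Mcm4, a helicase subunit, differed by 0.33 (limma adjusted p = 0.18). The exception below 0 was Pcna at -0.079, with 12.34 and 12.54 in Basal 24h and 12.34 and 12.39 in HRG 24h. The cyclin E genes did not pass: Ccne1 measured 7.77 and 7.89 in Basal 24h against 8.00 and 8.04 in HRG 24h, and Ccne2 measured 5.57 and 5.62 against 5.89 and 5.59. The Ccne1 arrays did not overlap, its difference of 0.19 had an adjusted p of 0.53 in limma, and the Ccne2 arrays overlapped.

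**Figure D3:**
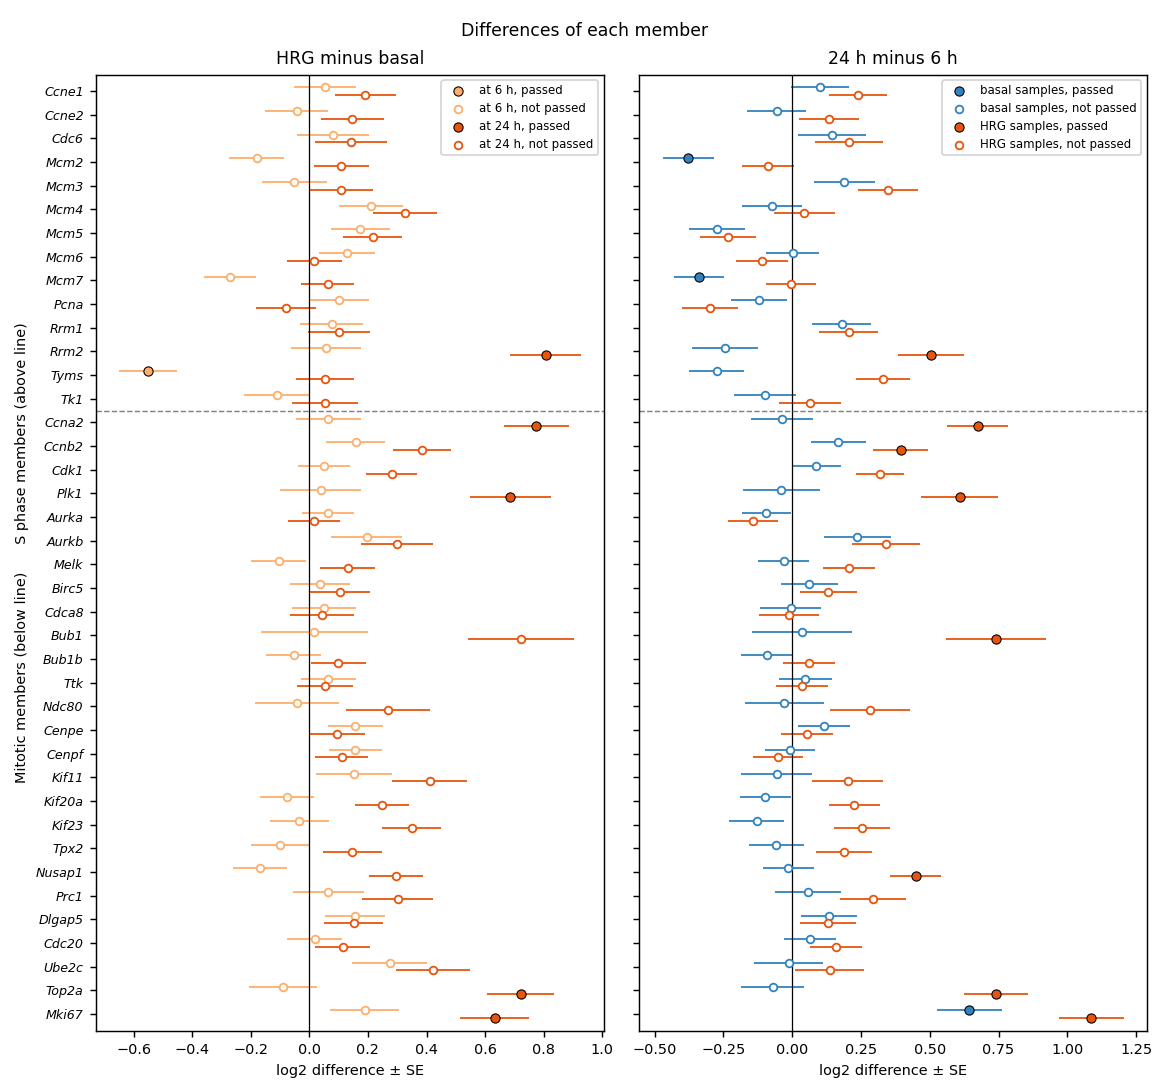
Points are the log2 differences of each member between HRG and basal cultures at 6 h and at 24 h, with standard errors from the limma fit, and a line marks 0. At 24 h all mitotic members and 13 of 14 S phase members lie at or right of 0, while at 6 h they lie on both sides.

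Markers of other peritoneal cells moved in the same comparison. Of 10 B cell markers 6 rose at 24 h with HRG (2.43% of all genes), including Cd79a by 0.98. The Cd79a call was lost without HRG 24h replicate 1, where the difference was 0.75. All 10 B cell markers were higher without overlap (19.1% of all genes), with a median difference of 0.56. Their summed linear level was 2795 to 3625 in Basal 24h and 4373 to 5352 in HRG 24h. Of 9 mast cell markers 4 rose, with summed levels of 6063 to 7664 and 8574 to 10607. Their median difference was 0.50, and without overlap 7 were higher and 0 lower. In the same groups the mitotic members summed to 2935 to 3081 and 3798 to 3925. Without Mki67, which adds most to this sum, they summed to 2500 to 2554 and 3060 to 3178. In Basal 6h, B cell markers summed to 5646 to 5655. The mitotic members summed there to 2772 to 2834, and without Mki67 to 2443 to 2550. Of 10 macrophage markers 3 rose, of 10 dendritic cell markers 2 rose, and of 12 T and NK cell, 12 granulocyte, 12 mesothelial and fibroblast and 6 erythroid and megakaryocyte markers 0 passed in limma (at an unadjusted p under 0.05, 2, 0, 3 and 1 of them were higher and 0, 1, 1 and 0 lower). Without overlap 8 macrophage and 6 dendritic cell markers were higher and 0 lower, with median differences of 0.17 and 0.35. In the lists where 0 passed, in the same order, 1, 2, 4 and 3 were higher without overlap and 0, 1, 2 and 0 lower. The part of these cells in the rise of the members was not tested.

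At 6 h the members were close to their basal levels. In limma 0 of 40 members rose (0.431% of all genes rose; 0 members were higher at an unadjusted p under 0.05) and 1 of 40 fell (0.818% of all genes fell). That gene was Tyms, thymidylate synthase, which makes the thymidine nucleotide of DNA. Tyms measured 8.82 and 8.64 in Basal 6h and 8.23 and 8.13 in HRG 6h, and 8.43 to 8.52 on the 4 arrays of 24 h. HRG 6h was the lowest group, and Tyms fell by 0.55 ± 0.098 on the log2 scale (SE, n = 2; limma adjusted p = 0.021). The call was lost without Basal 6h replicate 1 (adjusted p = 0.13), without HRG 6h replicate 1 (0.089), without HRG 6h replicate 2 (0.24) and with only the 4 arrays compared in the fit (0.059). In the same comparison 1 of 10 B cell markers fell, with sums of 5646 to 5655 in Basal 6h and 4302 to 4317 in HRG 6h. All 10 of them were lower without overlap (18.3% of all genes). Of 12 T and NK cell markers 1 fell, with sums of 4994 to 5050 and 3605 to 3676. Of 10 dendritic cell markers 2 fell and 0 rose, with sums of 2637 to 2871 and 2123 to 2194. Of 10 macrophage markers 1 rose and 0 fell. The part of these cells in the fall of Tyms was not tested.

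The other members differed by less at 6 h. Mcm7 and Mcm2, subunits of the replicative helicase, stood at -0.27 (limma adjusted p = 0.23) and -0.18 (limma adjusted p = 0.54). The highest values were 0.27 for Ube2c, which marks mitotic proteins for destruction, 0.21 for Mcm4 and 0.20 for Aurkb, the kinase of the chromosomal passenger complex (limma adjusted p = 0.46, 0.54 and 0.64). The median was 0.054 for S phase and 0.050 for mitotic members, against 0.019 for all genes. The arrays were higher with HRG without overlap for 12 of 40 members and lower for 7, against 20.0% and 18.3% of all genes.

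The difference between the HRG effects, that at 24 h minus that at 6 h, was tested directly. It passed above 0 for 1 of 40 members (1.02% of all genes) and below 0 for 0 (0.451% of all genes; at an unadjusted p under 0.05, limma gave 11 higher and 0 lower). That member was Top2a, with -0.090 at 6 h and 0.72 at 24 h, a difference of effects of 0.81 ± 0.16 (SE; limma adjusted p = 0.032). Leaving out any of 6 arrays ended the Top2a call, with adjusted p between 0.058 without HRG 6h replicate 2 or HRG 24h replicate 2 and 0.19 without HRG 24h replicate 1. It was 0.070 without Basal 6h replicate 1, 0.12 without Basal 24h replicate 2 and 0.14 without HRG 6h replicate 1, and the mean of both Top2a rows gave 0.43 (adjusted p = 0.30). Rrm2 at 0.75 ± 0.17 (limma adjusted p = 0.054), Ccna2 at 0.71 ± 0.16 (limma adjusted p = 0.051) and Tyms at 0.60 ± 0.14 (limma adjusted p = 0.058) did not pass. For Tyms the difference came with a fall at 6 h and a value of 0.054 at 24 h. The lowest were Pcna at -0.18, Mcm6 at -0.11 and Cenpe, a kinetochore motor, at -0.062. The medians were 0.15 for S phase and 0.23 for mitotic members, against -0.031 for all genes.

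Few members changed with time in culture without HRG. Between Basal 6h and Basal 24h, 1 of 40 rose (3.80% of all genes rose) and 2 of 40 fell (5.48% of all genes fell), shares near those of all genes. Mki67 rose by 0.64 ± 0.12 (SE, n = 2; limma adjusted p = 0.0046), from 8.37 and 8.15 to 9.04 and 8.77, and this call held without any single array. Mcm2 measured 8.55 and 8.60 in Basal 6h and 8.19 and 8.19 in Basal 24h, and fell by 0.38 ± 0.094 (limma adjusted p = 0.026). Mcm7 measured 8.63 and 8.63 in Basal 6h and 8.25 and 8.33 in Basal 24h, and fell by 0.34 ± 0.090 (limma adjusted p = 0.035). Neither gene's basal groups overlapped.

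Both MCM calls were lost in smaller fits. Mcm7 was lost without each of the 8 arrays in turn, with adjusted p between 0.055 and 0.20, and Mcm2 without each of the 4 basal arrays, with adjusted p between 0.068 and 0.11. With only the 4 basal arrays in the fit the adjusted p was 0.071 for Mcm2 and 0.11 for Mcm7. Aurkb (0.24) and Mcm3 (0.19) followed Mki67 at the upper end, and Tyms (-0.28, limma adjusted p = 0.12) followed the 2 that fell. Tk1, the thymidine kinase, differed by -0.10 on the row used and by -0.41 on its dimmer row, with means of 7.95 and 7.44. The median was -0.086 for S phase and -0.011 for mitotic members, against 0.028 for all genes, and 8 of 40 members were higher and 9 lower without overlap (23.5% and 21.7% of all genes). Of the B cell markers 8 of 10 fell between these groups, with sums of 5646 to 5655 in Basal 6h and 2795 to 3625 in Basal 24h, and of the mast cell markers 4 of 9 fell, with sums of 9246 to 9832 and 6063 to 7664. Of the dendritic cell markers 6 of 10 fell and 1 rose, with sums of 2637 to 2871 and 1616 to 1809, and of the T and NK cell markers 2 of 12 fell, with sums of 4994 to 5050 and 3574 to 4034. Their part was not tested.

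With HRG present, 7 of 26 mitotic members rose over time. Between HRG 6h and HRG 24h, 8 of 40 members rose (4.41% of all genes rose) and 0 fell (2.87% of all genes fell; at an unadjusted p under 0.05, limma gave 17 higher and 2 lower). Rrm2 was the S phase member among the 8. This comparison shares the HRG 24h arrays with that against Basal 24h, so the counts are not independent. Whether the change over time differed with HRG is the same test as the difference of effects, which only Top2a of the 40 passed. Mki67 rose by 1.09 ± 0.12 (SE, n = 2; limma adjusted p = 0.00020), or 2.13-fold, from 8.53 and 8.36 to 9.54 and 9.53. Top2a rose by 0.74 ± 0.12 (limma adjusted p = 0.0021) and Ccna2 by 0.67 ± 0.11 (limma adjusted p = 0.0033), and these 3 calls held without any single array.

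The other 5 rises over time with HRG were each lost without at least 2 of the 4 arrays compared. Bub1 rose by 0.74 ± 0.18 (limma adjusted p = 0.029), from 5.39 and 5.85 to 6.55 and 6.18. Plk1 rose by 0.61 ± 0.14 (limma adjusted p = 0.020) and Rrm2 by 0.51 ± 0.12 (limma adjusted p = 0.025). Nusap1, which bundles spindle microtubules, rose by 0.45 ± 0.093 (limma adjusted p = 0.012), from 5.84 and 5.97 to 6.37 and 6.35, and Ccnb2 by 0.39 ± 0.10 (limma adjusted p = 0.033), from 7.31 and 7.33 to 7.80 and 7.63. For all 5 the HRG 24h arrays were above both HRG 6h arrays. Bub1 and Nusap1 were not above the level of the olfactory receptor genes.

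Without HRG 6h replicate 1 the count of members that rose was 3, and the adjusted p was 0.26 for Bub1, 0.15 for Rrm2, 0.14 for Nusap1, 0.19 for Ccnb2 and 0.056 for Plk1. Without HRG 24h replicate 1 the count was 4, with 0.25 for Bub1, 0.18 for Plk1, 0.084 for Nusap1 and 0.25 for Ccnb2. Without HRG 6h replicate 2 it was 5, with 0.16 for Plk1, 0.11 for Rrm2 and 0.15 for Ccnb2. Without HRG 24h replicate 2 it was 5, with 0.23 for Rrm2, 0.070 for Nusap1 and 0.065 for Ccnb2. Centring arrays on their medians gave 0.059 for Ccnb2.

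Members at the lower end of the HRG time course were Pcna at -0.30 (limma adjusted p = 0.11), Mcm5 at -0.23 and Aurka at -0.14. Cdk1, at 0.32 ± 0.088, lay just outside the threshold (limma adjusted p = 0.0505). The median was 0.22 for mitotic members, with 23 of 26 above 0, and 0.099 for S phase members, against -0.020 for all genes. The arrays were higher at 24 h without overlap for 24 of 40 members and lower for 5 (22.6% and 26.6% of all genes). Of the B cell markers 1 of 10 rose in this comparison, with sums of 4302 to 4317 and 4373 to 5352. Of the mast cell markers 3 of 9 rose and 1 fell, with sums of 8490 to 9149 and 8574 to 10607. Of the macrophage markers 4 of 10 rose, with sums of 65299 to 68269 and 80585 to 82258, of the T and NK cell markers 2 of 12 rose, with sums of 3605 to 3676 and 3943 to 4191, and of the dendritic cell markers 2 of 10 rose and 1 fell, with sums of 2123 to 2194 and 1954 to 2646. The part of these cells was not tested.

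**Figure D4:**
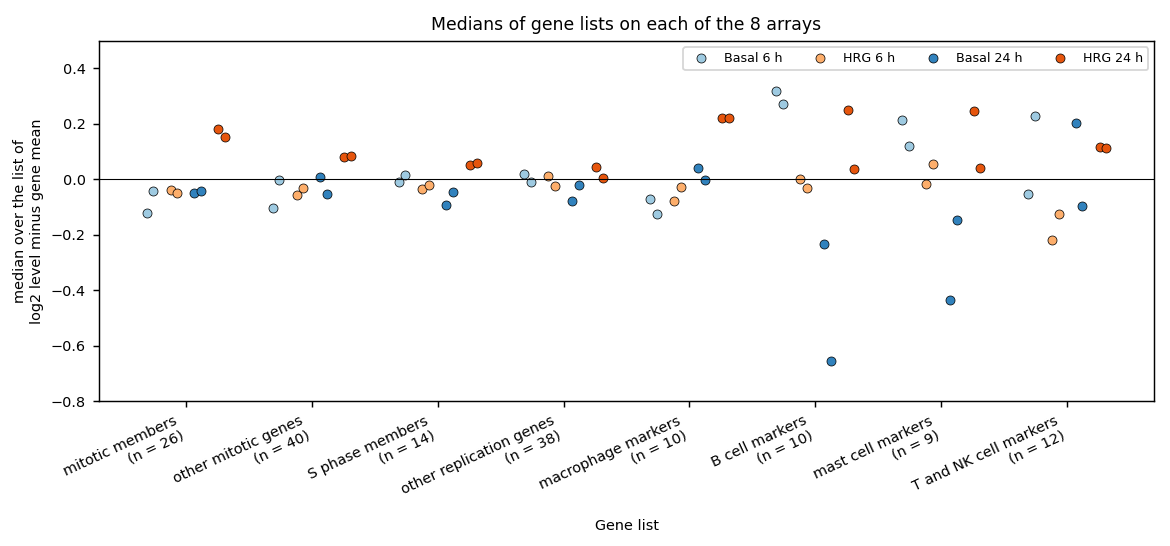
Points are the medians, over each gene list, of each array's log2 level minus the gene's mean over the 8 arrays, by group. The lists are the mitotic and S phase members, other mitotic and other replication genes, and markers of macrophages, B cells, mast cells, and T and NK cells. For the mitotic members, both HRG 24h arrays (0.18 and 0.15) lie above the other 6 arrays. The same holds for the S phase members, the other mitotic genes and the macrophage markers (0.22 and 0.22).

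Further genes of the same pathways were followed in 5 lists. Of 38 other replication genes, with origin recognition, polymerase and helicase cofactors, 0 passed in either direction with HRG at 6 h or 24 h (at an unadjusted p under 0.05, limma gave 5 higher and 5 lower at 6 h, and 5 higher and 1 lower at 24 h). Over time in basal cultures 4 of the 38 fell and 1 rose (5.48% and 3.80% of all genes). Cdt1, which loads the MCM helicase, measured 9.78 and 9.68 in Basal 6h and 8.76 and 9.03 in Basal 24h, and fell by 0.83 ± 0.13 (limma adjusted p = 0.0014). Orc2, a subunit of the origin recognition complex, fell by 0.55, Dbf4, the activator of the Cdc7 kinase, by 0.54 and Rpa3, of the single-strand binding complex, by 0.50, while the methyltransferase gene Dnmt1, named after its value was seen, rose by 0.40.

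Of 40 other mitotic genes 2 rose and 0 fell with HRG at 24 h (2.43% and 1.05% of all genes), with a median of 0.11 and 32 of 40 above 0. Anln, the anillin scaffold of the contractile ring, measured 5.13 and 5.14 in Basal 24h and 5.90 and 5.70 in HRG 24h, and rose by 0.67 ± 0.11 (limma adjusted p = 0.0042), a call lost without HRG 24h replicate 1 (0.075). Knl1, a kinetochore scaffold, rose by 0.54 ± 0.13 (limma adjusted p = 0.047), a call lost without Basal 24h replicate 2 or any HRG array, with adjusted p up to 0.40. At 6 h Espl1, the separase that frees sister chromatids, rose by 0.57 ± 0.11 (limma adjusted p = 0.037), and 1 of 40 rose in all (0.431% of all genes). Over time with HRG 4 of the 40 rose (4.41% of all genes), among them Cks2 (0.61), a cyclin-dependent kinase subunit, Anln (0.59) and the condensin gene Ncaph (0.43), and Espl1 fell by 0.49. Over time without HRG 1 of 40 fell (5.48% of all genes), Knl1 by 0.54. Anln and Knl1 lay under 6.66 in every group, and 20 of the 40 genes had means above it.

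Of 23 genes of G1 and the restriction point, 1 rose with HRG at 24 h (2.43% of all genes). Ccnd2, cyclin D2, measured 8.96 and 8.83 in Basal 24h and 9.42 and 9.35 in HRG 24h, with 9.64 and 9.48 in Basal 6h and 9.11 and 9.23 in HRG 6h. Basal 6h was thus its highest group and Basal 24h its lowest. It rose by 0.49 ± 0.10 with HRG at 24 h (limma adjusted p = 0.018) and differed by -0.40 at 6 h (limma adjusted p = 0.10). The rise did not pass without Basal 24h replicate 2 (adjusted p = 0.17), HRG 24h replicate 1 (0.19) or HRG 24h replicate 2 (0.079). Over time in basal cultures 6 of 23 fell (5.48% of all genes), among them Ccnd2 (by 0.67), Myc (by 0.67), Cdk6 (by 0.49) and Ccnd1 (by 0.40), and Rbl2, a pocket protein of resting cells, rose by 0.46. With HRG, Ccnd1 stood at 0.27 (limma adjusted p = 0.23) and Myc at -0.31 (limma adjusted p = 0.43) at 24 h. Over time with HRG, Rbl2 rose by 0.57 and Ccnd3, cyclin D3, by 0.52.

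Of 14 inhibitors of division 1 fell and 0 rose with HRG at 24 h (1.05% and 2.43% of all genes). The list as a whole was higher with HRG, with a median difference of 0.12 and 11 of 14 above 0. At an unadjusted p under 0.05, limma gave 6 higher and 1 lower. Without overlap 8 were higher and 3 lower (19.1% and 21.1% of all genes). Cdkn2b, which encodes the Cdk4 and Cdk6 inhibitor p15, measured 9.24 and 10.02 in Basal 24h and 8.56 and 8.55 in HRG 24h, and fell by 1.08 ± 0.18 (limma adjusted p = 0.0062). Its Basal 24h arrays lay far apart, and the call was lost without HRG 24h replicate 1 (adjusted p = 0.075) or HRG 24h replicate 2 (0.053). The difference was -0.69 without Basal 24h replicate 2 and -1.47 without Basal 24h replicate 1. Over time with HRG 6 of the 14 rose (4.41% of all genes), among them Ccng2 (0.83), Btg2 (0.52), Cdkn1b (0.51) and Tob1 (0.49), all of which restrain proliferation. Over time without HRG, Wee1, the kinase that holds Cdk1 inactive, fell by 0.89 and Cdkn2a rose by 0.37. Of 15 macrophage growth factors and regulators of self-renewal, 1 rose at 24 h with HRG (2.43% of all genes), the transcription factor gene Maf, by 1.17 ± 0.12 (limma adjusted p = 0.00025), and the receptor gene Csf1r stood at -0.0065. Maf measured 10.60 and 10.60 in Basal 6h and 10.99 and 11.08 in HRG 6h. It measured 9.74 and 9.91 in Basal 24h and 11.16 and 10.82 in HRG 24h. Over basal time Maf fell by 0.77 (limma adjusted p = 0.0015), and over HRG time it differed by -0.042. In all, 6 of the 15 fell over basal time and 1 rose (5.48% and 3.80% of all genes). At 6 h 3 of the 15 fell (0.818% of all genes), the growth factor genes Csf2 (by 0.94) and Csf1 (by 0.71) and Klf4 (by 0.57; adjusted p = 0.050 with the replicate block).

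Many calls in these lists were lost when 1 array was left out, in part where that array was outside the comparison. Those for Cdt1, Ccnd2, Cdk6 and Wee1 over basal time, for Ccng2 over HRG time and for Maf at 24 h held without any 1 array. Over basal time, calls were lost for Orc2 (adjusted p up to 0.16) and Dbf4 (0.30) without any basal array but Basal 6h replicate 2, and for Rpa3 (0.24) and Myc (0.11) without Basal 6h replicate 1 or Basal 24h replicate 1. Dbf4 and Rpa3 were also lost without either HRG 24h array. The Ccnd1 call was lost without any basal array but Basal 24h replicate 1 (up to 0.18), the Rbl2 call without any but Basal 6h replicate 1 (0.17), and the Knl1 call without replicate 2 of either basal group (0.20). The Cdkn2a call was lost without either HRG 6h array or any basal array but Basal 6h replicate 2 (0.17).

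Over HRG time, calls were lost without HRG 6h replicate 2 or HRG 24h replicate 1 for Ccnd3 (adjusted p up to 0.13), Rbl2 (0.12) and Tob1 (0.26), and without either HRG 6h array or HRG 24h replicate 1 for Btg2 (0.073) and Ncaph (0.23). The Cks2 call was lost without HRG 6h replicate 2 or either HRG 24h array (0.093), those for Cdkn1b (0.11) and Espl1 (0.24) without HRG 6h replicate 1 or either HRG 24h array, and that for Anln (0.080) without replicate 1 of either group. At 6 h the calls for Espl1 (0.31) and Klf4 (0.42) were lost without any array but those of Basal 24h. The Csf2 call (0.36) was lost without Basal 6h replicate 1 or any HRG array, and the Csf1 call (0.12) without Basal 6h replicate 1 or HRG 6h replicate 2.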

How the data were processed

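Expression was measured on Affymetrix arrays in 8 samples, 2 in each of 4 groups taken from the sample titles. The authors deposited log2 values made with Affymetrix Expression Console and RMA, per the submitters' processing notes, which also name limma. Their versions and genome build: not given in the sources used here. RMA evens out the arrays' distributions, so a change shared by most genes cannot be seen. Of 28853 rows, 21789 had 1 symbol, 1621 several and 5443 none. RefSeq GRCm38.p6 matched 21698 of the rows with 1 symbol by gene ID and changed 0 symbols. For the 999 genes with several rows the one with the highest mean was used, which left 19938 genes.

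In R 4.3.3 with limma 3.58.1, all 8 arrays were fitted with a coefficient for each group (4 residual and 7.81 prior degrees of freedom), and 5 contrasts were tested with eBayes, two-sided, with Benjamini-Hochberg adjustment over all genes and a threshold of 0.05. The scripts were tested on simulated data. The members, lists, tests and naming rule were chosen with earlier results of these data known. Named were the members past the threshold, the 3 with the largest differences in each direction, 12 cell cycle genes whatever their values, and up to 4 genes per other list and comparison with a few fixed regulators, of which Cdkn1a was not analysed here. Replicate numbers were not taken to pair samples. Array number limits the precision. Alternatives were the replicate block, eBayes with trend and robust, other scalings, a lower quartile covariate, filters on dim genes, the mean of rows, a fit to the compared arrays alone, and omission of each array in turn.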

Additional observations from a re-analysis of the deposited data

Results flagged for a closer look

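For 15 genes named here from the lists, the HRG effect at 24 h differed from that at 6 h in the limma test of the difference itself. More genes of the lists passed than are named. All 15 differences (24 h minus 6 h, log2) were above 0. One was a member, Top2a, at 0.81. Among other genes of division they were Knl1 at 0.88, Anln at 0.68, Ccnd2 at 0.89 and Wee1 at 0.76. Among growth factors and regulators of self-renewal they were Bhlhe40 at 0.88 and Csf1 at 0.71. Among markers of other cells they were Cd79a at 1.20 and Ms4a1 at 1.17 (B cells), Cpa3 at 1.22 and Ms4a2 at 0.93 (mast cells), Cd3g at 1.48 (T cells), Btla at 1.03 and Dpp4 at 0.84 (dendritic cells), and Alas2 at 0.90 (erythroid cells). Up to 2 markers are named per list, and 7 of 10 B cell, 3 of 9 mast cell and 3 of 10 dendritic cell markers passed in all. None of the 15 passed without HRG 24h replicate 1, with adjusted p between 0.078 and 0.24, and the number of all genes that passed above 0 was then 28 in place of 204. A value above 0 need not be a larger effect at 24 h: Csf1 differed by -0.71 at 6 h and -0.0033 at 24 h, and Cd3g by -1.11 and 0.37.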

How the results depend on the processing

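Of 18 member calls, 6 were kept under every alternative run, 12 were lost under at least 1, and 0 reversed. The count of members with a difference of effects (24 h minus 6 h) past the threshold and above 0 was 1 as reported, 3 with the replicate block or arrays centred on their medians, and 4 with trend and robust, quantile normalization, the lower quartile covariate or either filter on dim genes. The replicate block changed no other member call, and of 86 calls in the other lists it ended 2, Klf4 at 6 h (adjusted p = 0.050) and the Anln difference of effects (0.053). Deviations of same-numbered arrays correlated between -0.331 and 0.411 across groups. With 2 arrays per group, these values cannot decide whether the numbers pair samples. With only the arrays compared, 0 members fell at 6 h with HRG and 0 over time in basal cultures. The lower quartile covariate gave 9 members that rose at 24 h with HRG. Over time with HRG, 1 member fell (Pcna) with trend and robust, quantile normalization or that covariate. S phase medians moved at 6 h to 0.034 (quantile) and 0.0098 (covariate), for the difference of effects to 0.12 (quantile) and 0.17 (centring), over basal time to -0.052 (covariate) and -0.11 (olfactory filter), and over HRG time to 0.065 (dimmest 30% left out) and 0.055 (olfactory filter). Mitotic medians moved at 24 h to 0.32 and over HRG time to 0.29 (both olfactory filter). They moved to 0.27 for the difference of effects and to -0.047 over basal time (both quantile). Both filters on dim genes used means over all arrays, and HRG 24h lifted Top2a and Ccna2 past the olfactory level. HRG 24h likewise lifted Tpx2 and Dlgap5 past the limit of the dimmest 30%. Values under these filters are therefore no support for a rise in HRG 24h.

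With each array left out in turn, a lone array was assumed to vary like the other groups. Members that fell at 6 h then numbered 0 to 1, rose at 24 h 2 to 6, passed for the difference of effects 0 to 2, rose over basal time 1 to 2, fell over basal time 0 to 1, and rose over HRG time 3 to 11. S phase medians ran from -0.044 to 0.054 at 6 h, 0.078 to 0.18 at 24 h, 0.071 to 0.21 for the difference, -0.10 to -0.030 over basal time and 0.062 to 0.13 over HRG time. Mitotic medians ran from 0.0032 to 0.087 at 6 h, 0.23 to 0.27 at 24 h, 0.20 to 0.25 for the difference, -0.043 to 0.052 over basal time and 0.20 to 0.24 over HRG time. The low signal of 14 of 40 members limits what these arrays can show.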
